A study of Drosophila melanogaster with 9 samples.

Results

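The genes dpr2 and dpr4 encode cell-surface proteins with immunoglobulin domains, and both were read here in the hemocytes (blood cells) of Drosophila melanogaster larvae with and without a human leukaemia kinase transgene. They are 2 of the 17874 genes listed in the count table, taken by symbol. They were chosen by their counts in these libraries, because dpr4 had reads almost only in p210 libraries and dpr2 mainly in T315I libraries. Their levels are therefore given as a description, with no test.

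The 3 groups were larvae labelled UAS-BCR-ABLT315I (T315I), larvae labelled UAS-BCR-ABLP210 (p210) and W1118 larvae (control), with 3 libraries each. All libraries came from larvae of the third instar kept at 25 °C for the experiment, and each library pooled the bled hemocytes of 300 larvae. BCR-ABL p210 is the fusion kinase of chronic myeloid leukaemia, and T315I is the form of it whose altered kinase domain resists the drug imatinib. A UAS transgene needs a GAL4 driver, and neither the driver nor the strain background of the transgenic larvae is given in the sources used here. Nothing in them says that the control larvae carried a driver or an empty transgene, so the kinase and the genetic background cannot be told apart in either comparison with the control. Whether T315I and p210 larvae share a strain background is not given, so kinase form and background cannot be told apart between them either. Both comparisons with the control use the same 3 control libraries.

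The Dpr proteins (defective proboscis extension response) sit on the surface of neurons and bind a second immunoglobulin family, the DIPs (Dpr-interacting proteins). Each Dpr binds only some DIPs, and these pairings help neurons choose synaptic partners and survive. In binding assays Dpr2 and Dpr4 fall in one group of Dprs that also holds Dpr1, Dpr3, Dpr5 and Dpr7, and their partners there are DIP-eta, DIP-theta and DIP-iota. The families are best known from neurons and muscle.

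Library totals ran from 13864382 to 15717645 counts in T315I, from 14483946 to 18160796 in p210 and from 5398746 to 9844210 in control. A floor of 3 counts corresponded to between 0.196 and 0.212 CPM (the count relative to the library's total, with totals scaled by edgeR's TMM factors) in T315I, between 0.170 and 0.220 CPM in p210 and between 0.284 and 0.554 CPM in control. Defining hemocyte genes were abundant in every library. Hml, a clotting protein of plasmatocytes, ranged from 11090 to 16070 CPM in T315I, from 8788 to 15800 CPM in p210 and from 10630 to 12510 CPM in control. Fat body markers were higher in the control libraries: the summed level of 8 of them was 7954 to 12120 CPM in T315I, 4248 to 6130 CPM in p210 and 39010 to 98320 CPM in control. In bulk libraries fewer cells of a type and less RNA per cell cannot be told apart.

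The gene dpr4 (FBgn0053512) lies on the minus strand of chromosome 3R at 11533483 to 11542949 (dm6). It has 1 annotated transcript of 6 exons, and its span is 9.47 kb, with a longest intron of 2.92 kb. An antisense RNA gene, asRNA:CR45056, overlaps its exons on the other strand and was listed at 0 in all libraries. In T315I, dpr4 had 1 count in each of the 3 libraries. In p210 it had 119, 374 and 218 counts in replicates 1 to 3. In control it had 2, 4 and 1 counts. All 3 p210 libraries were thus high, and the other 6 held 10 of the 721 counts between them.

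In CPM, dpr4 averaged 0.0687 ± 0.0030 in T315I, 16.4 ± 9.89 in p210 and 0.302 ± 0.183 in control (SD, n = 3 each). The lowest p210 library was 15.2 times the highest of the other 6, while the p210 libraries differed among themselves by up to 3.94 times. The log2 fold change of p210 against control was 5.79, and the summed p210 count was 55.9 times the control count after scaling, with a 95% counting interval of 27.0 to 140. The summed T315I count was 0.00439 times the p210 count (95% counting interval 0.000903 to 0.0129), with a log2 fold change of -7.71. Between T315I and control the ratio of summed counts was 0.245 (95% counting interval 0.0410 to 1.08), from 3 counts in T315I and 7 in control. The T315I libraries lay below the control libraries in CPM, but at 1 to 4 counts a library a difference was not detectable at this depth. These intervals cover counting error only.

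The gene dpr2 (FBgn0261871) lies on the minus strand of chromosome 2L at 10917015 to 10964153 (dm6). Its 2 annotated transcripts have 8 exons each over a span of 47.1 kb. The longest intron measures 35.6 kb and holds an annotated transposable element, a roo copy, of 9.16 kb at 10946999 to 10956155. In T315I, dpr2 had 256, 312 and 2791 counts in replicates 1 to 3. In p210 it had 136, 41 and 52 counts. In control it had 3, 34 and 29 counts. T315I replicate 3 alone held 76.4% of the 3654 counts, and the other T315I libraries were still above every p210 and control library.

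In CPM, dpr2 stood at 18.1, 22.0 and 182 in the T315I libraries, at 7.69, 2.90 and 3.81 in the p210 libraries and at 0.554, 3.75 and 2.75 in the control libraries. The group means were 74.0 ± 93.6 CPM in T315I, 4.80 ± 2.54 CPM in p210 and 2.35 ± 1.64 CPM in control (SD, n = 3 each). The lowest T315I library was 2.35 times the highest p210 library and 4.82 times the highest control library. The p210 and control libraries overlapped. Thus T315I did not overlap with either other group, yet its SD was larger than its mean.

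The size of the dpr2 difference rested on 1 library. T315I replicate 3 was 10.1 times replicate 1 and 8.30 times replicate 2. The log2 fold change of T315I against control was 4.88 with all libraries and 3.08 without T315I replicate 3. Against p210 it was 3.93 with all libraries and 2.06 without that replicate. The mean of T315I replicates 1 and 2 was 20.0 CPM, which is 4.17 times the p210 mean and 8.51 times the control mean. For p210 against control the log2 fold change of dpr2 was 0.95, and it was 0.45 without p210 replicate 1, the highest p210 library. Counts per gene do not show where in the 47.1 kb span, or on which strand, the reads of any library lay.

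**Figure D1:**
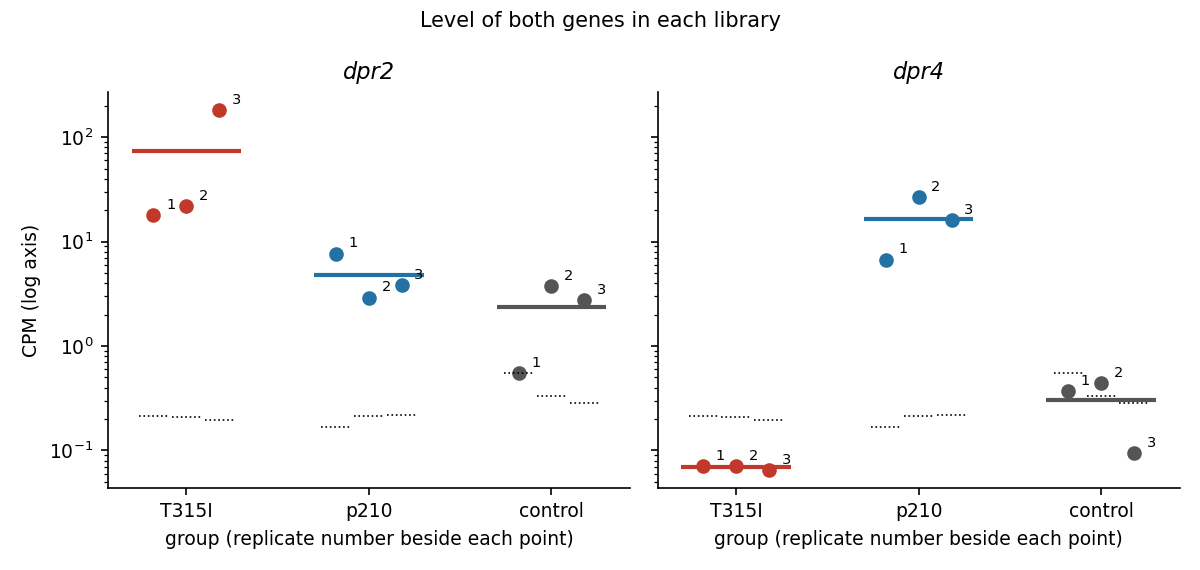
Level of dpr2 (left) and dpr4 (right) in each library, in CPM on a log axis, with T315I, p210 and control from left to right. Points are libraries with their replicate number, solid bars are group means and short dotted lines mark what 3 counts are worth in that library. T315I replicate 3 stands at 182 CPM for dpr2, and the 3 p210 libraries lie between 6.73 and 26.5 CPM for dpr4, while the T315I and control libraries lie at or below 0.442 CPM.

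Over all genes, replicates of T315I differed less among themselves than those of the other groups. Chi-square per degree of freedom ran from 13.4 to 15.7 between T315I replicates, from 24.4 to 90.7 between p210 replicates and from 50.2 to 75.8 between control replicates. Against that, dpr2 had an SD of 1.83 on the log2(CPM + 0.5) scale in T315I, where the median of the 9978 tested genes was 0.135. That SD was the tenth highest of all tested genes. In p210 the SD of dpr2 was 0.66 and that of dpr4 was 0.96, with a median of 0.207 over all tested genes. T315I replicate 3 was also the library where dpr2 stood furthest above the other 8, by 3.02 on that log2 scale. The next genes in that library were APC7, a subunit of the anaphase-promoting complex, at 1.41 and CG9395 at 0.91.

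How far a gene stood apart in one group was measured as the log2 of its lowest CPM in the group over its highest CPM in the other 6 libraries, with 0.5 added to both. For dpr4 in p210 this gap was 2.94, the highest of all listed genes. The genes after it were asRNA:CR45600 at 1.67, Ca-beta at 1.33, ChLD3 at 1.09 and TwdlG at 1.08. Ca-beta is the beta subunit of a voltage-gated calcium channel, ChLD3 belongs to the chitin deacetylase-like proteins and TwdlG to the Tweedle cuticle proteins. Every p210 library was above all other libraries for 522 of the 13458 genes with a count, or 3.88%, and the gap was over 1 for 7 of them.

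For dpr2 in T315I the gap was 1.18, again the highest of all listed genes. After it came CG42404 at 1.00, lncRNA:CR45650 at 0.99, AstA at 0.79 and Sfp53D at 0.36. AstA encodes the neuropeptide allatostatin A, and Sfp53D encodes a seminal fluid protein. AstA had 48, 102 and 89 counts in T315I, against 16, 3 and 24 in p210 and 6, 13 and 2 in control. Every T315I library was above all others for 38 of the 13458 genes, or 0.282%, and the gap was over 1 for 2 of them. The contrast that chose dpr2 and dpr4 is the one the gap measures, so their first ranks restate the choice.

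**Figure D2:**
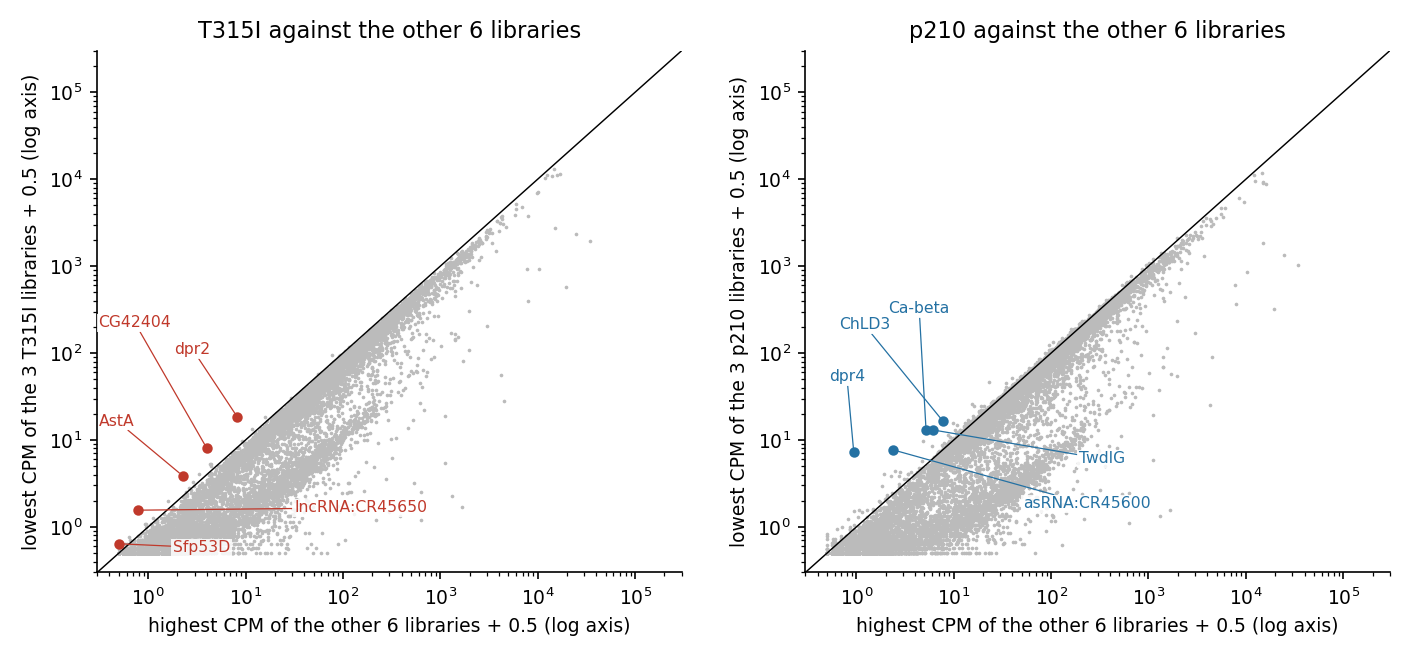
Lowest CPM in the T315I libraries (left) and in the p210 libraries (right) against the highest CPM of the other 6 libraries, with 0.5 added to each and both axes on a log scale. Each grey point is a listed gene, points above the diagonal line have every library of the group above all others, and the 5 genes with the widest gap are named. The gap is 1.18 for dpr2 and 2.94 for dpr4 on the log2 scale.

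The other dpr and DIP genes were measured at levels from below 1 CPM to over 200 CPM. Per kb of gene span free of other genes, dpr2 had a mean of 1.65 CPM in T315I, 0.107 in p210 and 0.0523 in control. Per kb, dpr4 had 0.00791 CPM in T315I, 1.89 in p210 and 0.0347 in control. Among all 32 dpr and DIP genes ordered by this level, dpr2 ranked 3 in T315I, 13 in p210 and 16 in control. The order put dpr4 at rank 28 in T315I, 3 in p210 and 21 in control. Above dpr2 in T315I stood dpr3 at 3.75 CPM per kb and dpr17 at 3.72. Above dpr4 in p210 stood dpr3 at 4.89 and dpr17 at 3.45 CPM per kb.

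Neighbours in that order had overlapping ranges of mean ± SD. In T315I, dpr2 stood at 1.65 ± 2.08 CPM per kb, with dpr17 above it at 3.72 ± 0.469 and DIP-epsilon below it at 0.520 ± 0.0501 (SD, n = 3 each). In p210, dpr4 stood at 1.89 ± 1.14 CPM per kb, with dpr17 above it at 3.45 ± 0.966 and DIP-alpha below it at 0.524 ± 0.260 (SD, n = 3 each). In each case the ranges of mean ± SD overlapped with those of both neighbours. Such ranges leave aside that the genes were measured in the same libraries. By free span, dpr4 kept rank 3 in p210 with any 1 p210 library left out. The order also depends on the length used. Per kb of exon, the T315I mean of dpr2 was 24.4 CPM, above dpr17 at 13.8 and below dpr3 at 57.3 and dpr21 at 26.4. Both places of dpr2 rested on T315I replicate 3. Without it dpr2 averaged 6.59 CPM per kb of exon, below dpr17 at 12.8, and 0.446 CPM per kb of free span, below DIP-epsilon at 0.511, so that it ranked 4 on either length. The p210 mean of dpr4 was 5.48 CPM per kb of exon, below dpr3 at 74.9, dpr21 at 32.3 and dpr17 at 12.8.

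The DIP partners of Dpr2 and Dpr4 showed neither gene's pattern. DIP-theta had 46, 33 and 39 counts in T315I, 26, 37 and 50 in p210 and 52, 180 and 145 in control. It averaged 2.71 ± 0.484 CPM in T315I, 2.58 ± 1.10 CPM in p210 and 14.4 ± 5.17 CPM in control (SD, n = 3 each), so it was low in both kinase groups. In T315I against control it fell by 2.41 ± 0.40 on the log2 scale (SE, edgeR adjusted p = 0.00377). In p210 against control it fell by 2.49 ± 0.40 (SE, edgeR adjusted p = 0.00156).

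DIP-iota was close to the floor, with means of 0.709 ± 0.0695 CPM in T315I, 0.667 ± 0.308 CPM in p210 and 0.458 ± 0.0886 CPM in control (SD, n = 3 each). Its log2 fold changes of 0.66 ± 0.51 in T315I and 0.55 ± 0.51 in p210 against control did not pass the test (edgeR adjusted p = 0.305 and 0.380). DIP-eta had 3 counts in control replicate 3 and none in the other 8 libraries, and was not tested.

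Within the Dpr group that binds these partners, dpr3 rose in both kinase groups. It had 2560, 2199 and 3183 counts in T315I, 2620, 2586 and 5170 in p210 and 208, 535 and 866 in control. The log2 fold change was 1.59 ± 0.37 in T315I against control (SE, edgeR adjusted p = 0.00874) and 1.98 ± 0.37 in p210 against control (SE, edgeR adjusted p = 0.00237). Its kinase libraries did not overlap with the control libraries, whose mean was 59.8 ± 21.8 CPM (SD, n = 3).

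Another gene of that group, dpr1, fell to 0.572 ± 0.143 CPM in T315I and 0.610 ± 0.297 CPM in p210, against 1.71 ± 0.556 CPM in control (SD, n = 3 each; edgeR adjusted p = 0.0206 for T315I and 0.0203 for p210). The call for dpr1 was lost without T315I replicate 2 or 3 or control replicate 2 in the T315I comparison, and without p210 replicate 1 or 2 or control replicate 2 in the p210 comparison. The gene dpr7 did not pass the test in either comparison, with log2 fold changes of -0.30 ± 0.43 in T315I and 0.03 ± 0.42 in p210 against control (SE). The gene dpr5, the annotated gene nearest to dpr4 on its lower-coordinate side, had 4, 1 and 0 counts in T315I, 0, 1 and 0 in p210 and 1, 3 and 1 in control, and was not tested.

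Over both families without dpr2 and dpr4, 20 of 30 genes passed the filter on low counts, and none of the 30 was at 0 in all libraries. In T315I against control 8 of the 20 changed, or 40.0%, where 49.3% of all tested genes did. Of the 20, 2 rose and 6 fell, where 20.5% and 28.7% of all tested genes did, with a median log2 fold change of -0.49, against -0.02 over all tested genes. In p210 against control 12 changed, or 60.0%, where 57.1% of all tested genes did. Of the 20, 3 rose and 9 fell, where 26.9% and 30.3% of all tested genes did, with a median of -0.87, against 0.05 over all tested genes. Both shares were near those of all genes.

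The genes that rose besides dpr3 were DIPs. DIP-alpha, the partner of Dpr6 and Dpr10, averaged 14.6 ± 3.03 CPM in T315I, 18.2 ± 9.0 CPM in p210 and 6.04 ± 0.546 CPM in control (SD, n = 3 each). Its log2 fold change was 1.27 ± 0.35 in T315I (SE, edgeR adjusted p = 0.0159) and 1.58 ± 0.35 in p210 (SE, edgeR adjusted p = 0.0046). The T315I call for DIP-alpha was lost without T315I replicate 3 (edgeR adjusted p = 0.0534). DIP-beta rose in p210 against control by 2.11 ± 0.74 (SE, edgeR adjusted p = 0.0335), a call lost without p210 replicate 2 or 3 or control replicate 1 or 2 and made in 5 of the 10 other alternatives. In T315I the DIP-beta difference was 1.92 ± 0.73 (SE, edgeR adjusted p = 0.0533), which passed in 4 of the 9 fits that each left out 1 library and in 2 of the 10 other alternatives.

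Among the genes that fell, dpr16 had the widest difference in both comparisons. It averaged 0.938 ± 0.286 CPM in T315I, 0.612 ± 0.188 CPM in p210 and 5.15 ± 2.22 CPM in control (SD, n = 3 each). The gene dpr16 fell by 2.46 ± 0.46 on the log2 scale in T315I and by 3.08 ± 0.48 in p210 (SE, edgeR adjusted p = 0.00474 and 0.00149). The gene dpr10, one of the ligands of DIP-alpha, fell by 2.30 ± 0.49 in T315I and by 2.85 ± 0.51 in p210 (SE, edgeR adjusted p = 0.00662 and 0.00201). Its mean was 0.366 ± 0.0747 CPM in T315I, 0.253 ± 0.125 CPM in p210 and 1.81 ± 0.648 CPM in control (SD, n = 3 each), so the kinase libraries were near the floor.

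In both comparisons dpr8 and DIP-epsilon also fell. The change of dpr8 was -1.72 in T315I and -1.76 in p210 (edgeR adjusted p = 0.0281 and 0.0216), and that of DIP-epsilon was -0.69 in T315I and -0.94 in p210 (edgeR adjusted p = 0.0142 and 0.0028). In the p210 comparison dpr11, dpr12 and DIP-lambda fell too, by 2.97, 1.43 and 1.13 on the log2 scale (edgeR adjusted p = 0.0242, 0.00538 and 0.0321). In T315I the differences of dpr11, dpr12 and DIP-lambda were -1.83, -0.81 and -0.93 and did not pass the test (edgeR adjusted p = 0.107, 0.0594 and 0.0728).

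Leaving out single libraries ended several of these calls. In the T315I comparison dpr8 was lost without T315I replicate 2 or 3 or control replicate 2 or 3, and DIP-epsilon without T315I replicate 2 or 3. In the p210 comparison dpr8 and dpr11 were lost without p210 replicate 2 or 3 or control replicate 2, and DIP-lambda without p210 replicate 1 or 2 or control replicate 2 or 3. In every fit that left out 1 library, dpr3, dpr10, dpr16 and DIP-theta passed in both comparisons, and dpr12, DIP-alpha and DIP-epsilon passed in the p210 comparison.

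None of the other 20 tested dpr and DIP genes was called in T315I against p210 by edgeR's quasi-likelihood test, and none had an unadjusted p under 0.05. Their median log2 fold change was 0.11, against -0.03 over all tested genes. Over all 9978 tested genes 1 was called in T315I against p210, or 0.01%, while 348 had an unadjusted p under 0.05 and DESeq2 called 35. Nothing is read from that gene, dpr4, since its choice used this contrast. The gene dpr17 did not pass the test in any comparison. Its counts were 846, 780 and 1074 in T315I, 759, 1050 and 735 in p210 and 102, 854 and 770 in control.

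**Figure D3:**
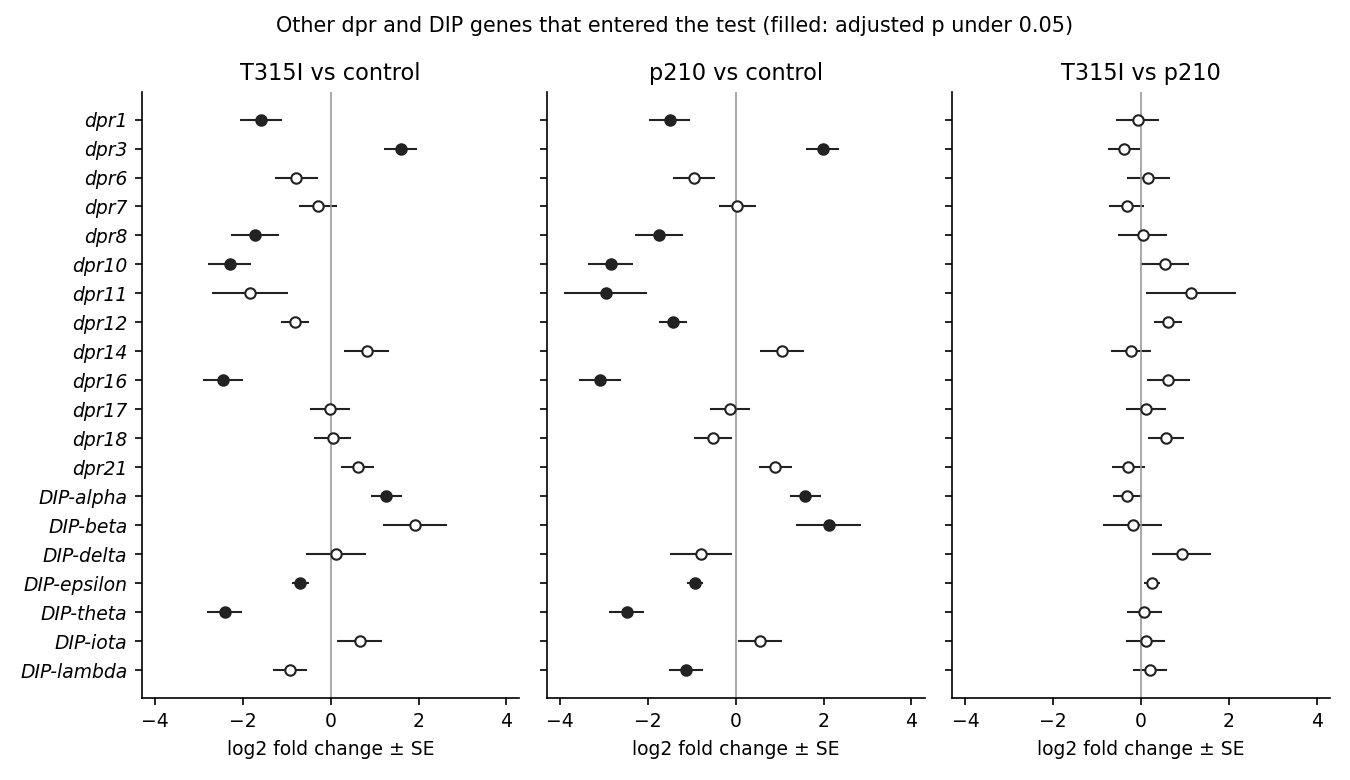
Log2 fold change with its standard error for the 20 other dpr and DIP genes that entered the test, for T315I against control, p210 against control and T315I against p210. Filled points have an edgeR adjusted p under 0.05. In the first panel 8 points are filled and in the second 12, while none is filled in the third, where the range lies between -0.39 and 1.13.

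A second pair of interacting cell-surface families, Beat and Side, also guides axons. Of the 22 beat and side genes listed, 13 were tested. In T315I against control 1 rose and 5 fell, and in p210 against control 2 rose and 6 fell. These were 46.2% and 61.5% of the 13, near the 49.3% and 57.1% of all tested genes. None was called in T315I against p210, where none had an unadjusted p under 0.05.

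Markers of neurons, the cells best known for dpr expression, were low to moderate in all groups. The summed level of 20 neuron markers was 272, 348 and 307 CPM in T315I replicates 1 to 3, 284 to 421 CPM in p210 and 223 to 256 CPM in control. The T315I library with the highest dpr2 lay between the other T315I libraries in this sum, and the p210 library with the highest dpr4, replicate 2, was at 328 CPM. The part of neurons in the levels of dpr2 and dpr4 was not tested. A large share of the marker sum was unc-13, with 179 ± 16.1 CPM in T315I, 198 ± 37.0 CPM in p210 and 93.5 ± 10.2 CPM in control (SD, n = 3 each). Within T315I and within p210 the libraries had the same order by unc-13 as by the sum. VAChT, the vesicular acetylcholine transporter, was at 0 in all libraries, but its span lies wholly inside that of ChAT, so the 0 is not read as absence. The synaptic vesicle protein gene nSyb had between 1 and 8 counts per library. The neuronal RNA-binding protein gene elav had at most 3 counts per library, but only 0.200 kb of its 14.0 kb span is free of other genes.

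Of the 20 neuron markers 14 were tested. In T315I against control 3 rose (brp, onecut and unc-13) and 3 fell (Syt1, Rdl and Rim). In p210 against control brp, cac, onecut, unc-13 and cpx rose and Syt1, Rdl and Rim fell. The called shares, 42.9% in T315I and 57.1% in p210, were near the 49.3% and 57.1% of all tested genes. The active zone protein gene brp had 13.8, 21.8 and 15.6 CPM in T315I, 14.5, 23.0 and 25.1 CPM in p210 and 2.58, 6.84 and 8.15 CPM in control. The glial regulator repo had 3, 4 and 2 counts in T315I, 3, 1 and 1 in p210 and 0, 11 and 4 in control. The summed level of 8 glia markers was 373 to 400 CPM in T315I, 369 to 376 CPM in p210 and 374 to 420 CPM in control, with alrm and moody at 0. Both lie wholly inside other genes, so their 0 is not read as absence. Most of the glia sum came from loco, which averaged 253 CPM in T315I, 247 CPM in p210 and 213 CPM in control, and from nrv2, which averaged 127 CPM in T315I, 121 CPM in p210 and 158 CPM in control.

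Several cell types of the bleed differed more clearly between the kinase groups and control. Of 9 tested lamellocyte markers 8 rose in each kinase group, with summed levels of 17540 to 20670 CPM in T315I, 16520 to 22050 CPM in p210 and 3505 to 8880 CPM in control. All 10 tested muscle markers fell in both, with sums of 373 to 438 CPM in T315I, 329 to 371 CPM in p210 and 1324 to 2954 CPM in control. Of 8 fat body markers 7 fell in T315I and 8 in p210. Testis markers fell in 11 of 14 in T315I and 12 of 14 in p210, where 1 (bam) rose, and midgut markers in 7 of 8 in T315I and 5 of 8 in p210. None of the 12 plasmatocyte markers fell, and 4 rose in T315I and 5 in p210. Crystal cell markers overlapped between groups, with sums of 4515 to 5714 CPM in T315I, 4163 to 4705 CPM in p210 and 4615 to 6415 CPM in control. Of 3 tested crystal cell markers 1 (lz) rose in each kinase group and none fell. The lamellocyte marker atilla and the crystal cell markers PPO1, CG17109 and fok were at 0 in all libraries, and nothing is read from them. Over all tested genes 20.5% rose and 28.7% fell in T315I, and 26.9% rose and 30.3% fell in p210. The part of these cell types in the levels of dpr and DIP genes was not tested.

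The tested genes around dpr2 and dpr4 differed from control by less than dpr2 did in T315I and dpr4 did in p210. Since dpr2 and dpr4 were chosen for their high levels in these groups, that contrast restates the choice. Of the genes within 100 kb of dpr2, 25 of 47 were tested, and 12 were called in T315I against control, or 48.0%, with log2 fold changes from -2.31 (CG14070) to 1.53 (aub). In p210 against control 13 were called, or 52.0%, from -3.20 (CG7309) to 1.48 (aurB). Both shares were near the 49.3% and 57.1% of all tested genes. None was called in T315I against p210, where the values ran from -0.19 (YL-1) to 1.00 (CG7309), against 3.93 for dpr2.

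The gene next to the start of dpr2, CG33129 (Tmem214), lies on the same strand and ends 0.751 kb before that start. CG33129 averaged 306 ± 19.1 CPM in T315I, 326 ± 34.6 CPM in p210 and 414 ± 47.8 CPM in control (SD, n = 3 each). It fell by 0.44 in T315I and by 0.34 in p210 on the log2 scale (edgeR adjusted p = 0.0230 and 0.0498), calls made in 3 and 2 of the 9 fits that each left out 1 library. Next to it YL-1 rose by 0.44 in p210 (edgeR adjusted p = 0.0409), a call made in 2 of the 9 fits that each left out 1 library and in 3 of the 10 other alternatives. The value became -0.026 with scaling to plasmatocyte markers. On the other side CG7309, 8.12 kb away, fell by 2.20 in T315I and by 3.20 in p210 (edgeR adjusted p = 0.00593 and 0.00137). Inside the span of dpr2, CG14072, lncRNA:CR44492 and lncRNA:CR44493 were at 0 in all libraries, which is not read as absence because they overlap dpr2 throughout.

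Within 100 kb of dpr4, 18 of 28 genes were tested. In T315I against control 6 were called, or 33.3%, where 49.3% of all tested genes were, with log2 fold changes from -2.59 (CG5342) to 1.01 (Jupiter, a microtubule-associated protein). In p210 against control 7 were called, or 38.9%, where 57.1% of all tested genes were, from -2.90 (CG6790) to 1.14 (Jupiter), against 5.79 for dpr4. None was called in T315I against p210, where the values ran from -0.33 to 0.89, against -7.71 for dpr4. The nearest tested gene, CG14708, 11.2 kb away, fell in both, with 3.12 ± 0.948 CPM in T315I, 3.15 ± 0.720 CPM in p210 and 13.3 ± 4.02 CPM in control (SD, n = 3 each; edgeR adjusted p = 0.00385 for T315I and 0.00173 for p210). Its neighbour CG10898 had between 14.0 and 16.7 CPM in T315I, 20.0, 22.8 and 15.2 CPM in p210 and 11.1, 13.1 and 14.8 CPM in control. CG10898 rose in p210 by 0.57 on the log2 scale (edgeR adjusted p = 0.0348), a call lost without p210 replicate 1 or 2 or control replicate 2 and made in 3 of the 10 other alternatives, where the value was as low as 0.080 with scaling to plasmatocyte markers. The nearest dpr gene, dpr5, lies 27.5 kb from dpr4 and had at most 4 counts in any library, so the p210 level of dpr4 was not shared with its closest family neighbour.

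**Figure D4:**
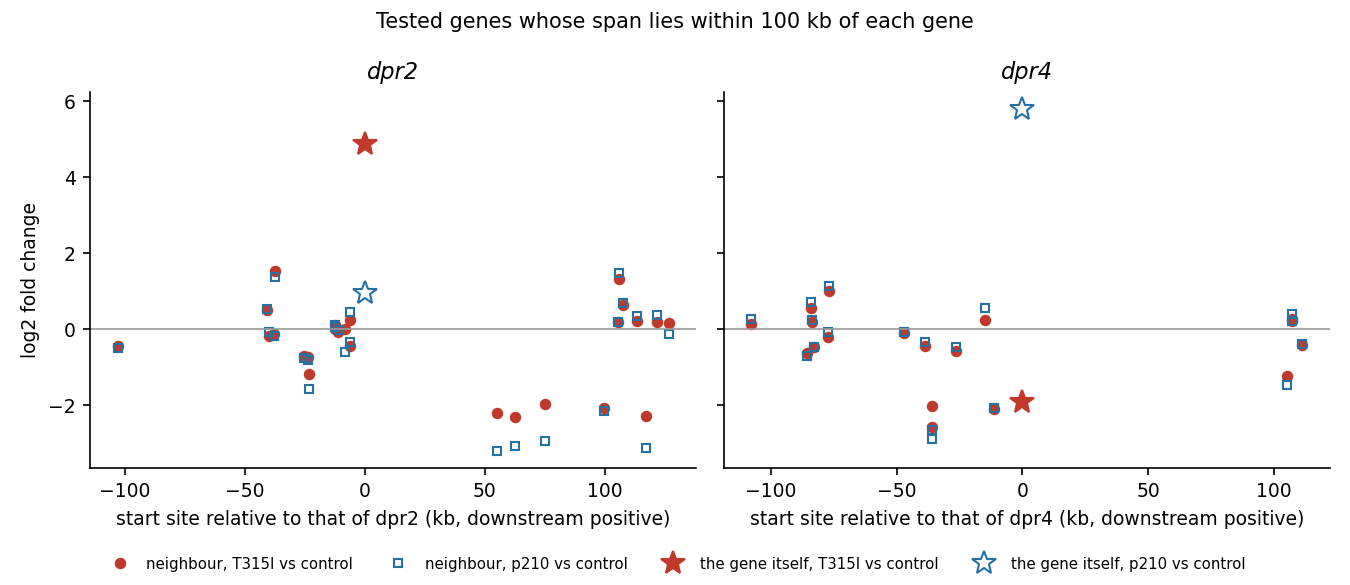
Log2 fold change of every tested gene within 100 kb of dpr2 (left) and dpr4 (right), by the distance of its start site from that of dpr2 or dpr4 in kb, with downstream positive. Filled red circles are T315I against control, open blue squares are p210 against control, and stars are dpr2 and dpr4 themselves. The neighbours lie between -3.20 and 1.53, while dpr2 is at 4.88 in T315I and dpr4 at 5.79 in p210, the groups for which they were chosen. The T315I value of dpr4, -1.91, rests on 3 counts in T315I and 7 in control.

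Genes with the most similar pattern were found by the Pearson correlation of log2(CPM + 0.5) over the 9 libraries, among the tested genes. The points share their libraries and depth, and r is a description. For dpr4 the 5 highest were CG34251 (r = 0.970), lncRNA:CR46006 (0.968), lncRNA:CR46003 (0.953), Cyp12a5 (0.949) and TwdlV (0.941), and 16 genes had an r over 0.9. In that order Spearman's rho was 0.831, 0.933, 0.783, 0.617 and 0.683. As dpr4 was chosen for its p210 counts, a high r with it partly restates that choice. Cyp12a5 is a cytochrome P450, and TwdlV, a Tweedle cuticle protein gene like TwdlG, lies 3.37 kb from it. The 2 long noncoding RNA genes lie 15.5 kb apart on chromosome 3L.

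These genes had the same order of p210 libraries as dpr4, with replicate 2 highest and replicate 1 lowest. CG34251 had 0, 0 and 1 counts in T315I, 18, 79 and 39 in p210 and 0, 4 and 1 in control. Cyp12a5 had 10, 10 and 18 counts in T315I, 63, 162 and 99 in p210 and 5, 4 and 15 in control. Ca-beta, among the genes with the widest p210 gap, had 66, 43 and 72 counts in T315I, 223, 542 and 598 in p210 and 7, 8 and 8 in control. Unlike dpr4, Ca-beta was highest in p210 replicate 3. Also unlike dpr4, it was above control in all T315I libraries, with 4.13 ± 0.956 CPM in T315I, 31.6 ± 16.7 CPM in p210 and 0.978 ± 0.280 CPM in control (SD, n = 3 each). Ca-beta lies on chromosome 2L, 192 kb from dpr2.

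Among the 5 highest for dpr2 were APC7 (r = 0.926), CG9395 (0.900), CG33919 (0.831) and CG16826 (0.830), and 1 gene had an r over 0.9. In that order Spearman's rho was 0.8, 0.9, 0.733 and 0.929. APC7 had 28, 37 and 119 counts in T315I, 43, 24 and 15 in p210 and 5, 8 and 12 in control. CG9395 had 24, 40 and 88 counts in T315I, 25, 3 and 24 in p210 and 2, 9 and 4 in control. Like dpr2, APC7 and CG9395 were highest in T315I replicate 3. Without that library their r was 0.795 and 0.807, and they moved to ranks 41 and 33.

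CG16826 had an r of 0.868 and rank 6 without T315I replicate 3. It averaged 0.890 ± 0.103 CPM in T315I, 0.449 ± 0.212 CPM in p210 and 0.0316 ± 0.0547 CPM in control (SD, n = 3 each), with every T315I library above every p210 and control library. CG16826 and CG9395 lie 0.802 kb apart on chromosome 2L, 2.38 Mb and 2.39 Mb from dpr2. Between dpr2 and dpr4 themselves the r was -0.342 over the 9 libraries and -0.203 without T315I replicate 3.

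**Figure D5:**
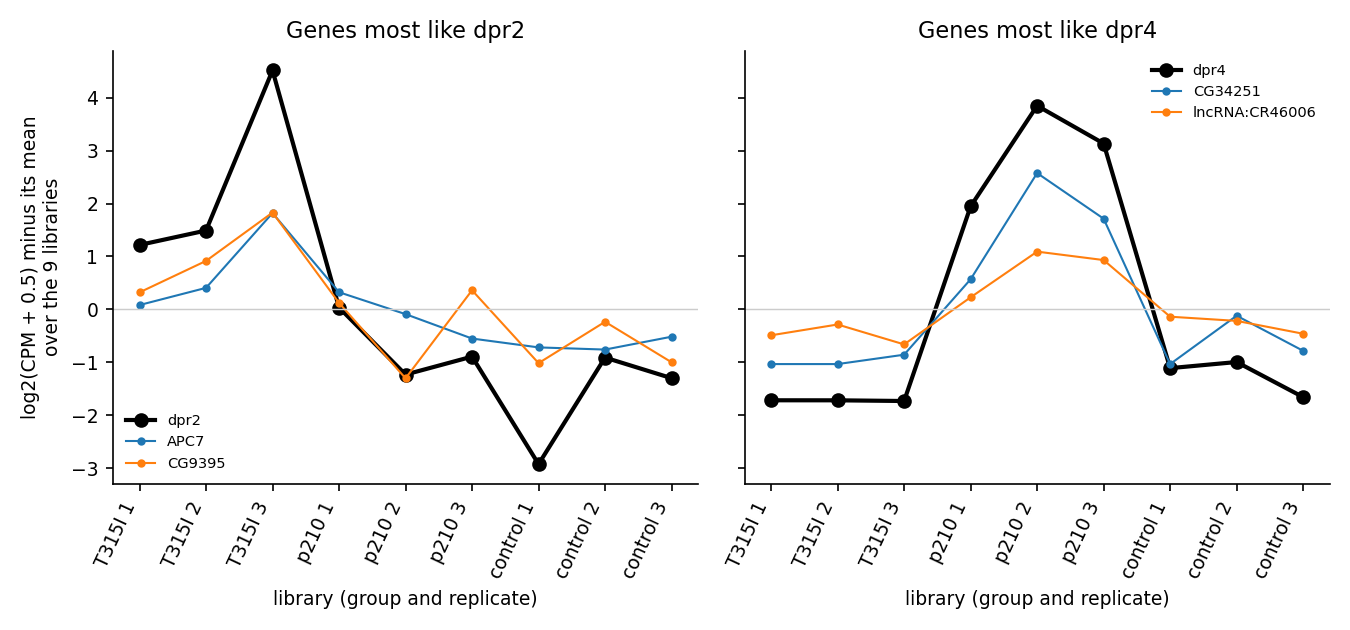
Log2(CPM + 0.5) of dpr2 (left) and dpr4 (right) and of the 2 genes with the highest Pearson r with each, minus the gene's mean over the 9 libraries, for T315I, p210 and control from left to right. Each point is a library, and lines only join the points of a gene. On the left dpr2, APC7 and CG9395 are highest in T315I replicate 3, and on the right dpr4, CG34251 and lncRNA:CR46006 are highest in p210 replicate 2.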

How the data were processed

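RNA of bled hemocytes was sequenced in 9 libraries (3 T315I, 3 p210, 3 control), made from total RNA with a stranded, ribosomal-RNA-depleting kit (per the labels' protocols). The authors deposited raw counts per gene, unnormalized, in 1 table. The submitters' processing notes name FastQC 0.11.8, HISAT2 2.1.0, featureCounts 2.0.1 of Subread, and dm6 as the genome. Which gene annotation was counted, with what strand option, and how multi-mapping reads were handled is not stated in them.

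Counts were tested with edgeR 4.0.16 in R 4.3.3 (filterByExpr, TMM scaling, robust quasi-likelihood fit, 1 mean per group over all 9 libraries, two-sided), with Benjamini-Hochberg adjustment over all 9978 tested genes and a threshold of 0.05. The procedure was tested on simulated data. CPM used TMM-scaled totals, and log2 levels used a pseudocount of 0.5 CPM. Of 17874 symbols, 17823 were matched to the BDGP6.54 annotation (the dm6 assembly), which gave coordinates and overlaps. All protein-coding genes wholly inside 1 intron of another gene (350 on its strand and 798 on the other) were at 0, against 308 of 7344 without overlap, as counting over whole gene spans with shared reads left out would give. Counts may therefore include intron reads. Genes nested on the other strand were at 0 as well, as counting without regard to strand would give. The counts of dpr2 and dpr4 may thus also include reads from the other strand. A 0 for an overlapped gene is not read as absence, and levels per kb use the free span. Replicate libraries differed by more than sampling noise, and each counted as 1 replicate.

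The genes, gene lists and tests were chosen with earlier results of these data known. Named were dpr2, dpr4, dpr and DIP genes called or with at least 1 CPM in a group mean, the overlapping genes and 3 nearest on each side, the 5 genes most like each and the 5 with the widest gap per group. Genes named as extremes within 100 kb, brp and other markers, dpr5, DIP-eta, dpr7 and DIP-iota were added for their role or position. Alternatives were other scalings, DESeq2 1.42.0, limma-voom (limma 3.58.1), other filters, a replicate block, fits of 2 groups, thinned counts and each library left out. Likeness by Spearman's rho and without T315I replicate 3, and the order of levels with each library left out, were added after seeing the data. Intervals for ratios of summed counts are 95% exact conditional binomial intervals. Fold changes of dpr2 and dpr4 carry no test because the genes were chosen for them. One gene that the rule names is not reported here.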

Additional observations from a re-analysis of the deposited data

How the results depend on the processing

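The direction of dpr2 and dpr4 in every comparison held under each alternative that tested them. For the contrasts that chose these genes this restates the choice, since the alternatives refit the same counts. The dpr4 difference between T315I and control rests on 3 counts against 7 and was not detectable at this depth. With only T315I and control fitted, dpr4 did not pass the filter on low counts, so its direction in that fit is not known. Leaving out 1 library at a time gave log2 fold changes for dpr2 of 3.08 to 5.37 (T315I against control), 0.45 to 1.36 (p210 against control) and 2.06 to 4.46 (T315I against p210). For dpr4 they were -2.43 to -1.38, 5.26 to 6.33 and -8.07 to -7.18 in the same order, and the first was -2.39 with scaling to plasmatocyte markers. The count of other dpr and DIP genes called in T315I against control was 4 with a filter of 5 CPM in 3 libraries, 5 with counts thinned to the shallowest library and 4 to 10 with 1 library left out (4 without T315I replicate 3, 5 without T315I replicate 2). In p210 against control it was 5 with that filter, 7 thinned and 7 to 14 with 1 library left out (7 without p210 replicate 2 or control replicate 2). Fewer genes are tested under that filter, and thinned libraries hold fewer counts. For the other changes the cause was not tested. Over all genes, calls ranged from 3346 to 5410 in T315I against control with 1 library left out, and from 4796 to 6222 in p210 against control, which fell to 3671 with the 5 CPM filter. In T315I against p210 the 1 call became 35 with DESeq2, 2 with no filter, 6 with only those groups fitted, 0 with thinned counts, 5 with plasmatocyte scaling and 0 to 4 with 1 library left out.

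Scaling to plasmatocyte markers moved the median of all genes to -0.49 in T315I and -0.45 in p210, and the share of called genes that rose to 10.5% in T315I and 12.5% in p210, against 41.7% and 47.0% with TMM and 34.5% and 36.0% with upper-quartile scaling. YL-1 in p210 turned to -0.026 there, and DIP-alpha in T315I lost its call. Of 2388 values of named genes under the alternatives, 2151 kept direction and side of the threshold, 102 lost a call, 38 gained one and 1 called value changed sign. Another 96, not called in either fit, also changed sign.

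Replicate numbers did not pair the samples: deviations of same-numbered libraries correlated between -0.357 and 0.183, and 2 of 9 pairs passed 0.1. Between libraries with other numbers they correlated between -0.251 and 0.388, and 5 of 18 pairs passed 0.1. Whether libraries with other numbers shared a batch is not given and was not tested. With replicate number as a block, dpr2 had log2 fold changes of 4.36, 1.14 and 3.22 and dpr4 of -1.82, 5.79 and -7.61 (T315I against control, p210 against control, T315I against p210), and 4125, 5299 and 1 genes were called. Under the block DIP-beta in T315I passed (adjusted p = 0.0139, and 0.0188 with DESeq2 without the block), while dpr8, AstA and CG9395 in T315I (0.0592, 0.0519 and 0.0579) and CG10898 and YL-1 in p210 (0.0692 and 0.0578) did not. Depth limits dpr4 in T315I and control and DIP-eta, which lie at or near the 3-count floor.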
